A study of Homo sapiens with 12 samples.

Results

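The 36 genes described here carry glucose through glycolysis to lactate or respond to low oxygen, and they were found by symbol among the 26439 genes of the deposited expression table. They comprise 4 genes of glucose uptake and phosphorylation, 10 of the upper and 5 of the lower part of glycolysis, 7 of pyruvate and lactate handling and 10 of the hypoxia response. A gene was tested when its deposited RPKM (mapped reads scaled to transcript length in kilobases and to library size) was at least 0.5 in at least 3 of the 12 libraries. Of the 36 members, 33 passed this filter, as did 14202 genes in all. The libraries came from a pair of prostate cancer cell lines, LNCaP-EnzR and its counterpart C4-2B-EnzR, made resistant to the androgen receptor antagonist enzalutamide by months of exposure and called MDVr in the sample labels. LNCaP derives from a lymph node metastasis of a prostate cancer, and C4-2B is a bone-metastatic descendant of LNCaP. Enzalutamide was present at 2 µM for LNCaP-EnzR and at 10 µM for C4-2B-EnzR cells, in RPMI medium with 10% serum, and the cells were infected with a lentivirus carrying either the pLKO control vector (LKO) or a short hairpin RNA against CXCR7 (shCXCR7). RNA was taken 4 days after infection, and each line had 3 LKO and 3 shCXCR7 libraries. The sample labels also carry a P number that differs between the lines and is not explained in them. The study's text speaks of duplicates for C4-2B-EnzR cells, whereas the labels give 3 libraries in each group, and all were used. Which hairpin was used is not given in the sources used here, so whether both lines received the same hairpin is not known. Oxygen was not among the labelled variables, and all groups share the lentiviral vector and enzalutamide. In these bulk libraries fewer cells that express a gene and less RNA per cell cannot be told apart.

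Glycolysis splits glucose into pyruvate through a fixed series of cytosolic enzymes, several of which exist as isozymes encoded by separate genes. Pyruvate is either reduced to lactate by lactate dehydrogenase and exported, or passed to mitochondria through the pyruvate dehydrogenase complex. When oxygen is low, prolyl hydroxylases no longer mark the HIF-1 alpha protein for degradation through VHL, and the stabilized factor binds short DNA words near glycolytic and other target genes and raises their transcription. HIF1A mRNA is not a measure of that protein, and luminal prostate cells are known for their citrate-secreting metabolism, which differs from that of most epithelia.

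The core of the HIF binding site is the word ACGTG or GCGTG, so the promoters of 4 members are shown: PGK1, which changed most upward in LNCaP-EnzR cells, EGLN3, which rose in both lines, BNIP3, which was called higher in C4-2B-EnzR cells, and ALDOC, whose change differed most between the lines. Each run holds the 250 bases before the start of the gene, 5′ to 3′ on the gene's own strand, from RefSeq on GRCh38.p14, and capitals mark every match on either strand (ACGTG, which reads CACGT on the other strand, or GCGTG, which reads CACGC on it, so that CACGTG holds 2 overlapping matches). The stretch of PGK1 is chrX:78103998-78104247 on the plus strand, that of EGLN3 is chr14:33951075-33951324 on the minus strand, that of BNIP3 is chr10:131981924-131982173 on the minus strand, and that of ALDOC is chr17:28576896-28577145 on the minus strand.
PGK1: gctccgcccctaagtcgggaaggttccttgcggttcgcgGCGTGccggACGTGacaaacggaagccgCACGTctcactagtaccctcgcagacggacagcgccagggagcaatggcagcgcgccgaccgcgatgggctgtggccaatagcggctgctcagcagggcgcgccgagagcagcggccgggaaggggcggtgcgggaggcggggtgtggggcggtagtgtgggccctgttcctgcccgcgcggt
EGLN3: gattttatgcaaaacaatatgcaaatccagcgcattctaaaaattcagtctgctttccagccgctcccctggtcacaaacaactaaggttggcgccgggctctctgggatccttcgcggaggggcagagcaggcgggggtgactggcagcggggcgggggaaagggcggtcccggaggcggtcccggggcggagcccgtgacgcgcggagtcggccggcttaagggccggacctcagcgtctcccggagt
BNIP3: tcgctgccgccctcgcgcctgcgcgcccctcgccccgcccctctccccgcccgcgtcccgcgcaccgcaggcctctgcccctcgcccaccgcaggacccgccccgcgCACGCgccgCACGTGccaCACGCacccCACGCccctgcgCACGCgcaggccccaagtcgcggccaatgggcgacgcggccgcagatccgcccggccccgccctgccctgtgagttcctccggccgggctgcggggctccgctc
ALDOC: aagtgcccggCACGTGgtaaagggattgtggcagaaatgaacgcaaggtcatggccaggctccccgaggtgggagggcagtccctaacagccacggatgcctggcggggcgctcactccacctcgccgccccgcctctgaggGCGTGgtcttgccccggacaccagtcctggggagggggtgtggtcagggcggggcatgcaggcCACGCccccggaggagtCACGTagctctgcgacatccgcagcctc

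The stretch of PGK1 held 3 matches, that of BNIP3 held 6 and that of ALDOC held 5, while that of EGLN3 held 0. RefSeq windows of 300 bases (250 before and 50 after a start) were at hand for 31 members, with 58 windows in all because several genes have more than 1 start, and 39 of these (67.2%) held a match against 48.4% of all 35116 windows. Among the 20 members with a single window, 18 (90.0%) held a match, against 47.3% of all 22114 genes with a single RefSeq window. Neither background was limited to genes in the expression table or tested here. A match is a word in the sequence and not a measured binding site, and such words are frequent in GC-rich promoters. No window was at hand for NDRG1, VEGFA, PFKFB2, SLC16A1 and SLC2A3.

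The knocked-down gene, listed as ACKR3 (CXCR7, an atypical chemokine receptor that signals through beta-arrestin), was lower in all shCXCR7 libraries. Its rescaled RPKM in LNCaP-EnzR cells was 122.5, 117.4 and 111.3 with LKO and 55.86, 50.63 and 41.56 with shCXCR7, or 42% of control. In C4-2B-EnzR cells it was 84.13, 86.76 and 85.9 with LKO and 22.29, 23.74 and 19.03 with shCXCR7, or 25.5% of control. Rescaled values are deposited RPKM divided by median-of-ratios factors computed within each line. The factors matter because LNCaP-EnzR shCXCR7 replicate 3 stood apart: its RPKM denominator was 35.67 M mapped reads, where the remaining 11 libraries had 9.53 to 14.08 M, 27.5% of them lay in genes against 67.0 to 75.5%, and 1636 genes were listed at 0 in it against 8719 to 9652. Reads in genes were 6.38 to 9.83 M in all 12 libraries, so its factor was 0.50 against 1.105 to 1.203 in the rest of its line. On deposited values the median log2 fold change of all genes in LNCaP-EnzR was -0.28, against 0.03 after rescaling. On those values the fall of ACKR3 in LNCaP-EnzR cells did not pass the test used below. All 10 luminal prostate markers were at 0.5 RPKM or more in every library, while none of the 4 basal and none of the 4 endothelial markers passed the filter. The summed RPKM of these 2 lists ran from 0.0455 to 2.2 and from 0.0927 to 2.09 among LNCaP-EnzR shCXCR7 libraries. It was at most 0.235 and 0.195 in the remaining groups. The RPKM of 7 fibroblast markers summed to 3.9 to 11.4 and those of 6 blood markers to 4.29 to 10.5, with 2 of each list past the filter. The luminal markers themselves moved with the knockdown, since 6 of 10 were lower and 1 higher in LNCaP-EnzR cells and 7 lower and 3 higher in C4-2B-EnzR cells, and their part in the results below was not tested. The labels do not say whether the replicates are separate cultures, and the p-values then reflect only how far these libraries vary, which may be technical.

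After CXCR7 knockdown the members moved in both directions in both lines. In LNCaP-EnzR cells 6 of the 33 tested members were higher and 9 lower (limma on log2(rescaled RPKM + 0.25), Benjamini-Hochberg adjusted p under 0.05 over all genes, called here), against 16.8% and 19.1% of all tested genes. In C4-2B-EnzR cells 9 were higher and 9 lower, against 19.4% and 19.5% of all genes. The median log2 fold change of the members was -0.10 in LNCaP-EnzR cells, where that of all genes was 0.03, and 0.01 in C4-2B-EnzR cells, where that of all genes was 0.00. Changes spanned -0.97 to 1.18 in the former line and -0.89 to 0.54 in the latter. On deposited values, where replicate 3 is not corrected, the LNCaP-EnzR calls fell to 0 higher and 1 lower (PFKFB2), and the C4-2B-EnzR calls were 8 higher and 5 lower. Without replicate 3 there were again 6 higher and 9 lower in LNCaP-EnzR cells, with BNIP3 in and PFKFB4 out. The higher count in LNCaP-EnzR was 3 without LKO replicate 2, and the lower count in C4-2B-EnzR was 4 without shCXCR7 replicate 1 and 5 without shCXCR7 replicate 2.

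**Figure D1:**
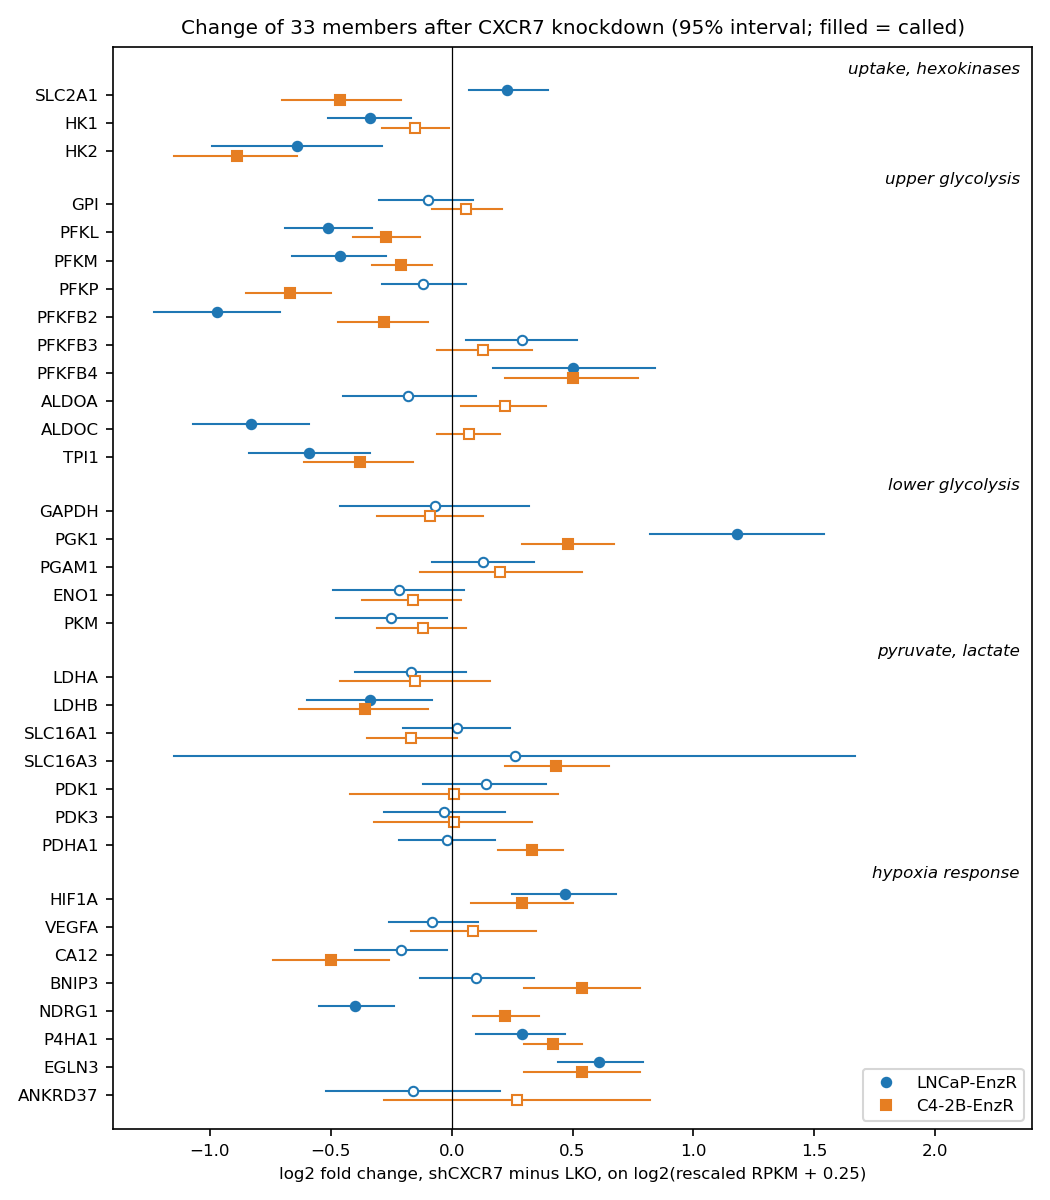
Log2 fold change (shCXCR7 minus LKO, on log2 of rescaled RPKM plus 0.25) of the 33 tested members in role order, with 95% intervals, circles for LNCaP-EnzR and squares for C4-2B-EnzR, filled where called. The circle of PGK1 lies farthest to the right at 1.18 and that of PFKFB2 farthest to the left at -0.97, while GAPDH and LDHA have intervals that span 0 in both lines.

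Among the genes of uptake and phosphorylation HK2 was lower in both lines, HK1 was lower in LNCaP-EnzR cells, and the glucose transporter gene SLC2A1 was called in opposite directions. SLC2A1 encodes GLUT1, the basal glucose transporter. In LNCaP-EnzR cells it was at 11.52, 11.91 and 11.06 with LKO and 12.9, 14.53 and 13.33 with shCXCR7, a log2 fold change of 0.23 (SE 0.07, adjusted p = 0.034), whereas in C4-2B-EnzR cells it was at 12.64, 11.39 and 10.41 against 7.43, 8.64 and 8.83, a change of -0.46 (SE 0.1, adjusted p = 0.014). The groups did not overlap in either line, though the LNCaP-EnzR call was lost when any of 4 of the 6 libraries (each LKO replicate and shCXCR7 replicate 2) was left out (adjusted p 0.0702 to 0.129), and on deposited values its estimate was -0.091. HK2, the inducible hexokinase that binds mitochondria, was at 3.2, 2.78 and 2.89 against 1.66, 1.53 and 2.3 in LNCaP-EnzR cells (-0.64, SE 0.15, adjusted p = 0.0121). In C4-2B-EnzR cells HK2 was at 4.32, 5.25 and 5.17 against 2.44, 2.66 and 2.47, or 53.8% of control (-0.89, SE 0.11, adjusted p = 0.00136). HK2 thus fell in both lines with no overlap of the groups, and in LNCaP-EnzR its adjusted p was 0.0522 without LKO replicate 1. HK1, the more abundant constitutive hexokinase, fell in LNCaP-EnzR cells from 25.42 to 26.08 down to 19.29 to 22.49 (-0.34, SE 0.08, adjusted p = 0.00873) and was at 35.97, 36.36 and 39.61 against 32.58, 33.98 and 33.94 in C4-2B-EnzR cells, where it missed the threshold (-0.15, adjusted p = 0.0812). SLC2A3, the high-affinity transporter GLUT3, did not pass the filter: it had 1 read in 1 of the other LNCaP-EnzR libraries, 25 reads in shCXCR7 replicate 3 and 1 read in all C4-2B-EnzR libraries together.

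Of the 10 upper glycolysis members, 5 were lower and 1 higher in each line, while 19.1% and 16.8% of all genes were so called in LNCaP-EnzR and 19.5% and 19.4% in C4-2B-EnzR cells. The 5 lower stayed 5 without any 1 library in LNCaP-EnzR cells, but in C4-2B-EnzR cells they were 1 without shCXCR7 replicate 1, 2 without shCXCR7 replicate 2 and 3 without shCXCR7 replicate 3 or LKO replicate 2. Phosphofructokinase, whose subunits PFKL, PFKM and PFKP catalyze the committed step, had lower liver and muscle type transcripts in both lines. PFKL was at 48.01, 52.22 and 50.35 against 34.65, 38.29 and 32.88 in LNCaP-EnzR (-0.51, SE 0.08, adjusted p = 0.00145) and at 58.89, 54.98 and 58.57 against 47.2, 49.98 and 45.52 in C4-2B-EnzR cells (-0.27, SE 0.06, adjusted p = 0.0127). PFKM changed by -0.46 (SE 0.08, adjusted p = 0.00304) and by -0.21 (SE 0.05, adjusted p = 0.0214), again with no overlap, from 41.11 to 43.51 down to 27.34 to 32.97 and from 52.96 to 55.6 down to 45.04 to 47.77. In C4-2B-EnzR cells the PFKL call was lost without shCXCR7 replicate 1 (adjusted p = 0.052), and that of PFKM without shCXCR7 replicate 1 or 2 (0.0632 to 0.0812). The platelet type PFKP was at 14.05, 14.71 and 14.42 against 12.56, 14.6 and 12.66 in LNCaP-EnzR cells, where the groups overlapped (-0.12, adjusted p = 0.281), and at 35.09, 37.95 and 41.0 against 22.57, 24.17 and 24.32 in C4-2B-EnzR cells (-0.67, SE 0.07, adjusted p = 0.00102).

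The PFKFB genes encode bifunctional enzymes that make or remove fructose 2,6-bisphosphate, the allosteric activator of phosphofructokinase. PFKFB2 had the lowest estimate of all members in LNCaP-EnzR cells, at 4.67, 4.59 and 4.23 with LKO against 2.07, 1.96 and 2.5 with shCXCR7 (-0.97, SE 0.11, adjusted p = 0.000313). It also fell in C4-2B-EnzR cells, from 4.53, 4.97 and 4.59 to 3.88, 3.76 and 3.8 (-0.28, SE 0.08, adjusted p = 0.0292), a call lost when any of 5 libraries was left out (every one but LKO replicate 1, adjusted p 0.0524 to 0.0978). PFKFB4 rose in both lines by 0.50. Its values were 2.45, 2.54 and 2.95 against 3.08, 4.13 and 4.47 in LNCaP-EnzR cells (SE 0.15, adjusted p = 0.0266) and 3.69, 2.96 and 3.84 against 5.02, 4.77 and 5.26 in C4-2B-EnzR cells (SE 0.11, adjusted p = 0.0156). Leaving out LKO replicate 1 or 2 or shCXCR7 replicate 2 or 3 ended its call in LNCaP-EnzR (adjusted p 0.0839 to 0.0951), and leaving out shCXCR7 replicate 1 or 3 ended it in C4-2B-EnzR cells (0.0559 to 0.0587). PFKFB3, whose enzyme strongly favours synthesis, was at 3.42, 3.35 and 3.31 against 3.88, 3.95 and 4.71 in LNCaP-EnzR cells and just missed the threshold (0.29, SE 0.1, adjusted p = 0.0521).

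Aldolase cleaves fructose 1,6-bisphosphate, with an A form found in most tissues and a C form typical of neurons. ALDOC was at 47.53, 56.28 and 57.89 against 31.48, 32.44 and 26.81 in LNCaP-EnzR cells (-0.83, SE 0.1, adjusted p = 0.000452). In C4-2B-EnzR cells it was at 36.7, 35.09 and 34.29 against 38.53, 36.3 and 36.74 (0.07, SE 0.05, adjusted p = 0.333), so its groups were far apart in the first line and overlapped in the second. ALDOA was at 236.6, 262.5 and 262.3 against 228.6, 244.5 and 201.3 in LNCaP-EnzR (-0.18, adjusted p = 0.294) and at 179.3, 176.8 and 201.4 against 221.2, 219.7 and 206.7 in C4-2B-EnzR cells (0.22, SE 0.07, adjusted p = 0.0539, and 0.0198 without LKO replicate 3). Triose phosphate isomerase, TPI1, which interconverts the cleavage products, fell from 121.6, 126.1 and 124.9 to 92.21, 85.98 and 70.84 in LNCaP-EnzR cells (-0.59, SE 0.11, adjusted p = 0.00328). In C4-2B-EnzR cells TPI1 fell from 135.8, 147.9 and 168.9 to 118.5, 120.0 and 107.7 (-0.38, SE 0.09, adjusted p = 0.0194), a call lost without LKO replicate 2 or any shCXCR7 replicate (adjusted p 0.0521 to 0.065). GPI, the isomerase of glucose 6-phosphate, was called in neither line.

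In lower glycolysis 1 of the 5 members, PGK1, was called in each line, and it was higher. The share of all tested genes called higher was 16.8% for the LNCaP-EnzR line and 19.4% for its counterpart. The count of 1 of 5 lies close to both shares and does not set lower glycolysis apart. PGK1 encodes phosphoglycerate kinase, which makes the first ATP of the pathway, and is a widely used HIF target. In LNCaP-EnzR cells its rescaled RPKM was 181.7, 206.6 and 173.0 with LKO and 438.1, 496.7 and 346.4 with shCXCR7, that is 187 ± 17.4 against 427 ± 75.8 (mean ± SD, n = 3). This was a 2.26-fold rise (log2 1.18, SE 0.16, adjusted p = 0.000649). In C4-2B-EnzR cells it was at 212.4, 197.2 and 183.8 against 272.8, 262.0 and 292.8, or 198 ± 14.3 against 276 ± 15.6, a 1.4-fold rise (0.48, SE 0.08, adjusted p = 0.00448). All shCXCR7 libraries lay above all LKO libraries in each line. GAPDH, the enzyme just before it in the pathway, was at 645.9, 702.8 and 723.8 against 687.9, 707.9 and 581.8 in LNCaP-EnzR cells (-0.07, 95% interval -0.46 to 0.32, adjusted p = 0.783). In C4-2B-EnzR cells GAPDH was at 634.1, 659.0 and 760.4 against 648.8, 655.2 and 617.4 (-0.09, interval -0.31 to 0.13, adjusted p = 0.461). The groups of GAPDH, commonly used as a reference transcript, thus overlapped in both lines. PGAM1, ENO1 and PKM, which lead from 3-phosphoglycerate to pyruvate, were not called, with changes of 0.13, -0.22 and -0.25 in LNCaP-EnzR and 0.20, -0.16 and -0.12 in C4-2B-EnzR cells. Several of these genes have pseudogenes in GENCODE 44 named for them (65 for GAPDH, 13 for PGAM1, 6 for LDHA, 5 for PKM, 4 each for TPI1 and ENO1 and 2 for PGK1, and 44 for BNIP3 below), and how reads that fit several places were counted is not given in the sources used here, so their levels are uncertain.

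**Figure D2:**
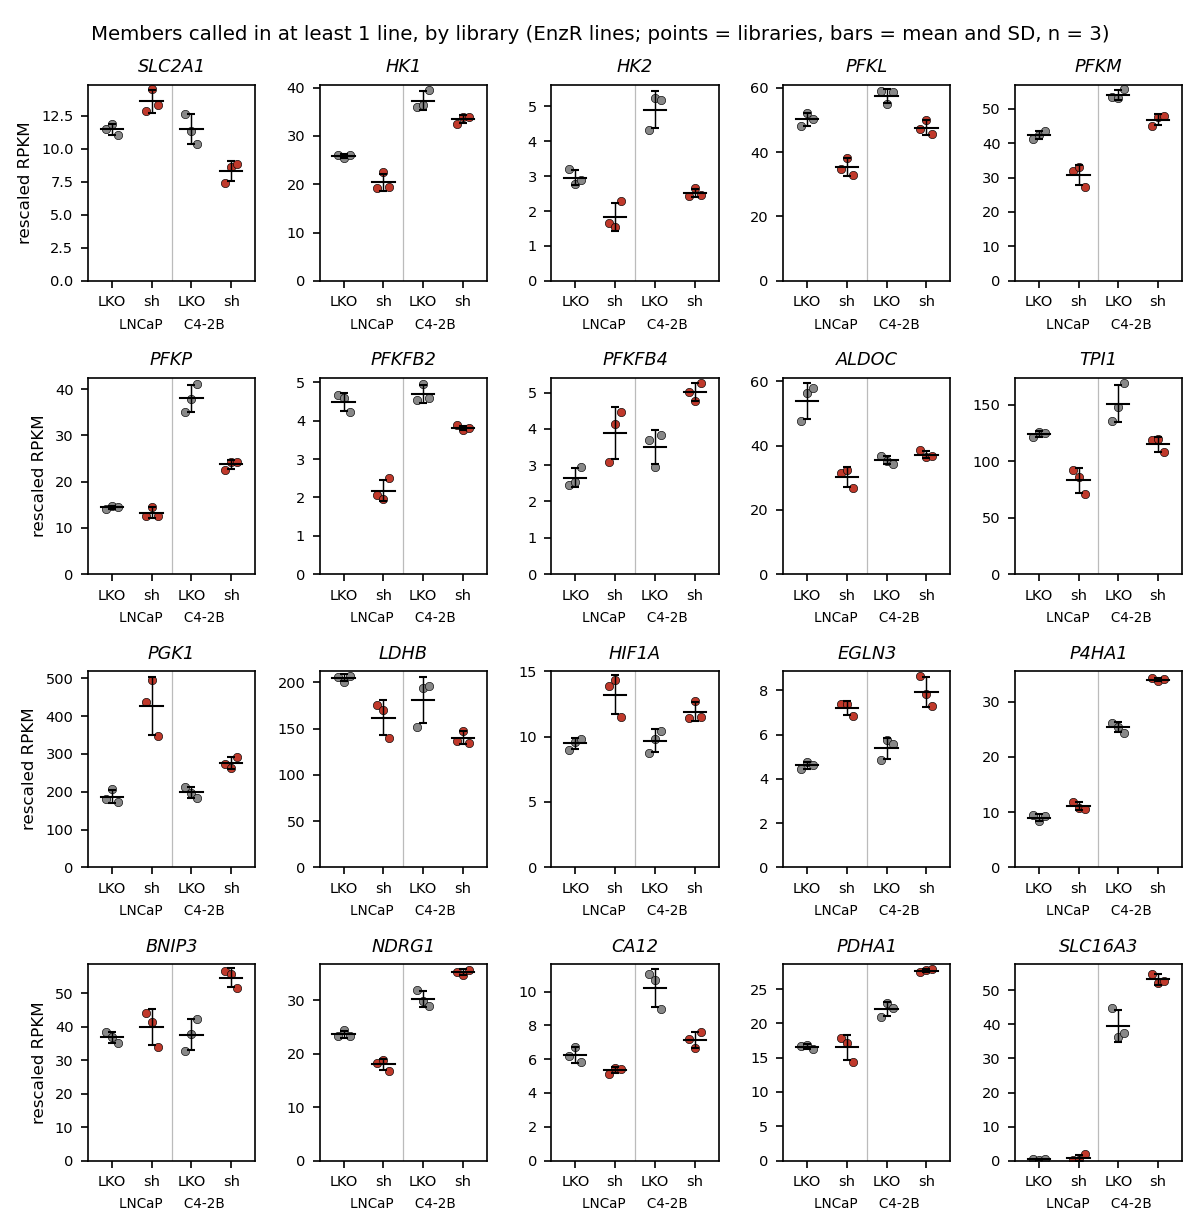
Rescaled RPKM of the 20 members called in at least 1 line, in each library (points), with group mean and SD (n = 3), for LKO (grey) and shCXCR7 (red) in LNCaP-EnzR (left of each panel) and C4-2B-EnzR cells (right). PGK1 rises from 187 to 427 and from 198 to 276 on average, while SLC16A3 is near 0 in all but 1 LNCaP-EnzR library.

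Among the 7 genes of pyruvate and lactate handling, 1 was lower in LNCaP-EnzR cells, and 2 were higher and 1 lower in C4-2B-EnzR cells. Of all tested genes, 16.8% were higher and 19.1% lower in LNCaP-EnzR, and 19.4% and 19.5% in C4-2B-EnzR cells. LDHB, the heart form of lactate dehydrogenase that favours lactate oxidation, was the gene lower in both, at 205.9, 200.6 and 207.5 against 175.6, 170.3 and 140.3 in LNCaP-EnzR (-0.34, SE 0.11, adjusted p = 0.0457) and at 151.6, 194.4 and 196.3 against 137.1, 147.6 and 134.1 in C4-2B-EnzR cells (-0.36, SE 0.11, adjusted p = 0.0413). Both calls stood close to the threshold, and each was lost without any of 5 of its 6 libraries (adjusted p 0.057 to 0.159 in LNCaP-EnzR, where shCXCR7 replicate 3 was the exception, and 0.0811 to 0.131 in C4-2B-EnzR, where LKO replicate 1 was). LDHA, the muscle form that favours lactate production, was at 74.99, 73.4 and 76.03 against 74.9, 68.22 and 57.92 (-0.17, 95% interval -0.40 to 0.06, adjusted p = 0.245) and at 74.02, 94.43 and 106.7 against 80.85, 84.16 and 79.87 (-0.15, interval -0.46 to 0.16, adjusted p = 0.392), with overlapping groups. Its adjusted p in C4-2B-EnzR cells was 0.022 without LKO replicate 1, as was that of the lactate importer and exporter SLC16A1 at 0.0352.

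PDHA1, the catalytic subunit of pyruvate dehydrogenase that commits pyruvate to the mitochondrion, rose in C4-2B-EnzR cells from 21.0, 23.04 and 22.21 to 27.51, 27.76 and 27.95 (0.33, SE 0.06, adjusted p = 0.00516). In LNCaP-EnzR cells it was at 16.77, 16.88 and 16.26 against 17.86, 17.2 and 14.44, an estimate of -0.02. The kinases that switch that complex off, PDK1 and PDK3, were called in neither line, with estimates between -0.03 and 0.14. SLC16A3 encodes MCT4, the hypoxia-inducible lactate exporter. In C4-2B-EnzR cells it rose from 44.84, 36.27 and 37.36 to 54.92, 52.14 and 52.62 (0.43, SE 0.09, adjusted p = 0.00984). In LNCaP-EnzR cells it was near the floor at 0.34, 0.28 and 0.46 with LKO and 0.20, 0.15 and 1.85 with shCXCR7, where the last value, 82 reads against 6 and 7 in the replicates, was that of replicate 3. Its LNCaP-EnzR estimate was 0.26 with that library and -0.51 without it, and neither passed the test (adjusted p = 0.783 and 0.0648).

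Of the 8 tested hypoxia-response members, 3 were higher and 1 lower in LNCaP-EnzR cells, where 16.8% and 19.1% of all genes were called, and 5 were higher and 1 lower in C4-2B-EnzR cells, where 19.4% and 19.5% were. The 5 were 3 without LKO replicate 2 or any 1 shCXCR7 replicate of that line, and the 3 in LNCaP-EnzR cells were 2 without LKO replicate 2 or 3 or shCXCR7 replicate 1. EGLN3, the oxygen-sensing prolyl hydroxylase PHD3 that is itself a HIF target, was at 4.47, 4.77 and 4.62 against 7.37, 7.41 and 6.84 in LNCaP-EnzR cells, a 1.53-fold rise (0.61, SE 0.08, adjusted p = 0.000436). In C4-2B-EnzR cells it was at 4.85, 5.74 and 5.57 against 8.67, 7.82 and 7.29, a 1.45-fold rise (0.54, SE 0.1, adjusted p = 0.00717). HIF1A, which encodes the oxygen-regulated subunit of HIF-1, was at 8.97, 9.6 and 9.83 against 13.86, 14.31 and 11.5 (0.47, SE 0.09, adjusted p = 0.00509) and at 8.73, 9.82 and 10.46 against 11.41, 12.7 and 11.47 (0.29, SE 0.09, adjusted p = 0.04). Both genes rose without overlap, but the HIF1A call in C4-2B-EnzR cells was lost when any library other than LKO replicate 3 was left out (adjusted p 0.0641 to 0.135). P4HA1, a collagen prolyl hydroxylase subunit, was at 9.44, 8.34 and 9.28 against 11.8, 10.81 and 10.55 in LNCaP-EnzR (0.29, SE 0.08, adjusted p = 0.0222) and at 26.22, 25.51 and 24.4 against 34.29, 33.74 and 34.09 in C4-2B-EnzR cells (0.42, SE 0.05, adjusted p = 0.00159). Its LNCaP-EnzR call was lost without LKO replicate 2 or 3 or shCXCR7 replicate 1 (adjusted p 0.0539 to 0.0977), and on deposited values its estimate there was -0.037.

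Other hypoxia-response members were called in 1 line or moved oppositely. BNIP3, a mitophagy receptor, rose in C4-2B-EnzR cells from 32.76, 37.83 and 42.2 to 56.69, 55.7 and 51.45 (0.54, SE 0.1, adjusted p = 0.00674). In LNCaP-EnzR cells BNIP3 was at 38.34, 37.01 and 35.17 against 44.2, 41.36 and 33.87, with overlap (0.10, adjusted p = 0.48, and 0.0315 without replicate 3). CA12, a cell-surface carbonic anhydrase, fell in C4-2B-EnzR cells from 11.04, 10.67 and 8.96 to 7.19, 6.64 and 7.6 (-0.50, SE 0.1, adjusted p = 0.00962) and was at 6.16, 6.74 and 5.82 against 5.14, 5.5 and 5.41 in LNCaP-EnzR cells (-0.21, adjusted p = 0.0815). NDRG1, a stress-responsive gene also induced by androgen, fell from 23.41, 24.45 and 23.25 to 18.22, 18.8 and 16.87 in LNCaP-EnzR cells (-0.40, SE 0.07, adjusted p = 0.00232). In C4-2B-EnzR cells it rose from 31.9, 29.81 and 28.99 to 35.34, 34.74 and 35.79 (0.22, SE 0.06, adjusted p = 0.0213), a call lost without LKO replicate 2 or any shCXCR7 replicate (adjusted p 0.0628 to 0.0716). VEGFA, the angiogenic growth factor, was at 31.11, 29.49 and 30.45 against 31.35, 29.17 and 26.03 (-0.08, 95% interval -0.26 to 0.11, adjusted p = 0.512) and at 21.83, 18.38 and 16.48 against 20.83, 18.79 and 20.47 (0.09, interval -0.17 to 0.35, adjusted p = 0.543), with overlap in both lines. ANKRD37, a small ankyrin repeat gene, was called in neither, between 0.85 and 2.85 RPKM in all libraries. CA9 and ADM, a carbonic anhydrase and the vasodilator adrenomedullin, both strongly inducible by hypoxia, did not pass the filter: CA9 had 0 reads in 5 LNCaP-EnzR libraries, 44 in shCXCR7 replicate 3 and 1 to 7 in C4-2B-EnzR libraries, and ADM had 2 to 6, 41 and 0 to 2. By the third-highest deposited RPKM, on which the filter of 0.5 turns, the nearest members were ADM below it at 0.32 and ANKRD37 well above it at 2.66.

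Set side by side, 5 of 33 members (15.2%) were higher in both lines, namely EGLN3, HIF1A, P4HA1, PFKFB4 and PGK1, against 9.59% of all tested genes. Another 6 (18.2%) were lower in both, namely HK2, LDHB, PFKFB2, PFKL, PFKM and TPI1, against 10.7%. SLC2A1 and NDRG1 (6.06%) were called in opposite directions, against 0.69%, and 13 members (39.4%) were called in neither line, against 46.1%. The lines do not share libraries, and these shares are descriptions. They also moved when single libraries were left out. Without C4-2B-EnzR shCXCR7 replicate 1, the count higher in both was 3 (PGK1, P4HA1 and EGLN3) and the count lower in both was 1 (HK2). The count higher in both was likewise 3 without C4-2B-EnzR shCXCR7 replicate 3 or LNCaP-EnzR LKO replicate 2. The count lower in both was 2 without C4-2B-EnzR shCXCR7 replicate 2, 3 without its shCXCR7 replicate 3 or LKO replicate 2, and 4 without C4-2B-EnzR LKO replicate 3 or LNCaP-EnzR LKO replicate 1. Of the opposite calls 1 was left when any of 8 libraries was left out (each LNCaP-EnzR LKO replicate, LNCaP-EnzR shCXCR7 replicate 2, C4-2B-EnzR LKO replicate 2 and each C4-2B-EnzR shCXCR7 replicate). On deposited values all 3 counts were 0.

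The difference of the knockdown effects (C4-2B-EnzR minus LNCaP-EnzR, interaction term over 12 libraries) was called for 3 members upward and 3 downward, against 5.76% and 5.96% of all genes. The effect was more positive in C4-2B-EnzR cells for ALDOC (0.90, SE 0.12, adjusted p = 0.00121), PFKFB2 (0.69, SE 0.13, adjusted p = 0.00718) and NDRG1 (0.62, SE 0.09, adjusted p = 0.00146). It was more negative for SLC2A1 (-0.69, SE 0.13, adjusted p = 0.00493), PFKP (-0.56, SE 0.11, adjusted p = 0.00697) and PGK1 (-0.70, SE 0.17, adjusted p = 0.0231). ALDOC, PFKP, SLC2A1 and NDRG1 thus differed in whether or which way they were called, while PFKFB2 and PGK1 kept their direction and differed in size. The PGK1 difference was lost without any of 5 libraries (LNCaP-EnzR LKO replicates 1 and 3, C4-2B-EnzR LKO replicate 2 and shCXCR7 replicates 1 and 2, adjusted p 0.0522 to 0.0674). The count upward was 5 without LNCaP-EnzR shCXCR7 replicate 1 or C4-2B-EnzR LKO replicate 3, and 4 without LNCaP-EnzR shCXCR7 replicate 3, where SLC16A3 came in (0.95, adjusted p = 0.008). For PDHA1, ALDOA and BNIP3 the difference missed the threshold (0.34, 0.40 and 0.44, adjusted p = 0.0602, 0.0655 and 0.0802). ACKR3 itself fell further in C4-2B-EnzR cells (-0.72, SE 0.15, adjusted p = 0.0091), a call lost on deposited values. The depth of knockdown thus differed along with the line, the enzalutamide concentration and the labelled P number, which cannot be told apart.

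The share of 1 isozyme in the summed RPKM of its family does not depend on how libraries were scaled. In 2-sided exact permutation tests of 3 against 3 libraries the smallest possible p is 0.1, so no share could pass 0.05, and 9 of 18 tests reached 0.1 (0.2 after adjustment over the 18). A p of 0.1 means only that the groups did not overlap. How often ratios of other genes lacked overlap was not counted, so the 9 have no background. The shares of PFKL, PFKM and PFKP come from 1 sum and are not separate tests. PFKP made up 13.5% of phosphofructokinase RPKM with LKO and 16.8% with shCXCR7 in LNCaP-EnzR cells, and 25.4% and 20.1% in C4-2B-EnzR cells, that is, opposite in direction (exact p = 0.1 each). LDHA made up 26.8% and 29.2% of lactate dehydrogenase RPKM in LNCaP-EnzR and 33.6% and 36.9% in C4-2B-EnzR cells (exact p = 0.1 each). The share of HK2 among the hexokinases went from 11.6% to 7.0% in C4-2B-EnzR (exact p = 0.1) and from 10.3% to 8.29% in LNCaP-EnzR cells, where the groups overlapped (exact p = 0.3). The aldolase pair shifted toward ALDOA in LNCaP-EnzR cells, from 82.5% to 88.1% (exact p = 0.1), and from 84.0% to 85.3% in C4-2B-EnzR cells (exact p = 0.3). SLC16A1 held 98.5% of its pair with SLC16A3 in LNCaP-EnzR LKO and 96.8% in shCXCR7 libraries (exact p = 1, with 91.68% in replicate 3), but 40.7% and 31.1% in C4-2B-EnzR cells (exact p = 0.1).

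**Figure D3:**
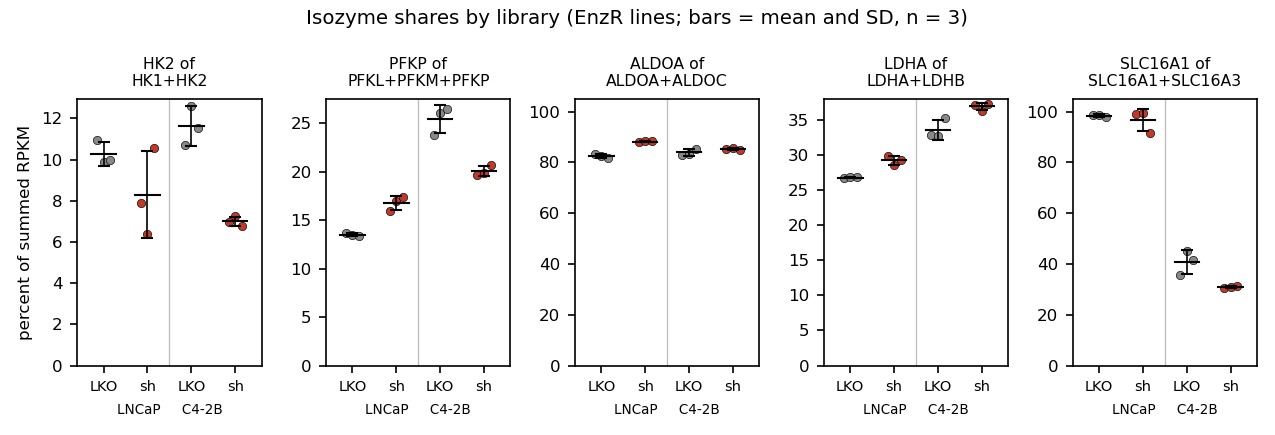
Share (percent of summed RPKM of the isozyme family) of HK2, PFKP, ALDOA, LDHA and SLC16A1 in each library (points, n = 3 per group) for LKO and shCXCR7 in both lines. The PFKP share goes from 13.5 to 16.8% in LNCaP-EnzR and from 25.4 to 20.1% in C4-2B-EnzR cells.

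The 2 lines already differed with the control vector. Of 33 members, 9 were higher and 9 lower in C4-2B-EnzR than in LNCaP-EnzR LKO libraries (factors over all 12 libraries), against 31.7% and 30.4% of all genes, so the members' share lay close to the background. This comparison shares its LKO libraries with both knockdown comparisons, and line, drug concentration, labelled P number and any handling cannot be told apart in it. In order of RPKM in LNCaP-EnzR LKO cells, GAPDH led at 761, followed by ALDOA at 280, LDHB at 225, ENO1 at 212, PGK1 at 206, PKM at 178, TPI1 at 137, LDHA at 82.4 and GPI at 70.3, and among tested members PDK3 at 2.47 and SLC16A3 at 0.397 stood last. The PGK1 libraries (191.0 to 227.3) overlapped those of ENO1 (203.0 to 217.3) and LDHB (220.8 to 229.1), so the place of PGK1 among these neighbours was not resolved. SLC16A3 was at 0.38, 0.30 and 0.51 RPKM in LNCaP-EnzR (9, 11 and 14 reads) and at 40.57, 32.81 and 33.54 in C4-2B-EnzR LKO libraries (870 to 1348 reads), a log2 difference of 5.80. It would not have passed the filter on LNCaP-EnzR libraries alone, so the filter favoured a difference here. This value is therefore a description, and SLC16A3 is among the 9 higher members. Higher in C4-2B-EnzR were also P4HA1, at 10.38, 9.17 and 10.25 against 23.72, 23.07 and 21.9 (1.19, SE 0.07, adjusted p = 2e-05), and PFKP, at 15.45, 16.18 and 15.92 against 31.75, 34.33 and 36.8 (1.10, SE 0.07, adjusted p = 2.35e-05). Smaller excesses were called for PFKFB3, HK2, CA12, PKM, GPI and HK1 (0.24 to 0.53).

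Lower in C4-2B-EnzR controls were ANKRD37, VEGFA, ALDOC and ALDOA. VEGFA was at 34.22, 32.46 and 33.62 in LNCaP-EnzR and at 19.75, 16.62 and 14.79 in C4-2B-EnzR LKO libraries (-0.97, SE 0.1, adjusted p = 0.000221), and ALDOC was at 52.29, 61.93 and 63.93 against 33.21, 31.75 and 30.78 (-0.89, SE 0.09, adjusted p = 0.00014). ALDOA was at 260.2, 288.9 and 289.7 against 162.3, 159.9 and 180.8 (-0.74, SE 0.08, adjusted p = 0.000175), and ANKRD37 was at 3.13, 2.56 and 2.51 against 1.12, 0.80 and 0.76, resting on 26 to 35 and 8 to 14 reads (-1.39, SE 0.16, adjusted p = 0.000297). These 4 had the lowest estimates of all members, and their groups did not overlap. How many of all genes lacked overlap was not counted, while 30.4% were called lower. LDHB, GAPDH, SLC2A1, BNIP3 and HIF1A were also called lower (-0.25 to -0.48). The calls of GAPDH, SLC2A1, BNIP3 and HIF1A were lost on deposited values and when any of 4 or 5 of the 6 libraries was left out (adjusted p 0.0517 to 0.129), that of PKM without any 1 LNCaP-EnzR library (0.0536 to 0.0599), and quantile normalization gave 0.043 for GAPDH. With these, the lower count was 5 without LKO replicate 2 of either line, and the split was 11 higher and 5 lower on deposited and 12 and 8 on quantile-normalized values.

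**Figure D4:**
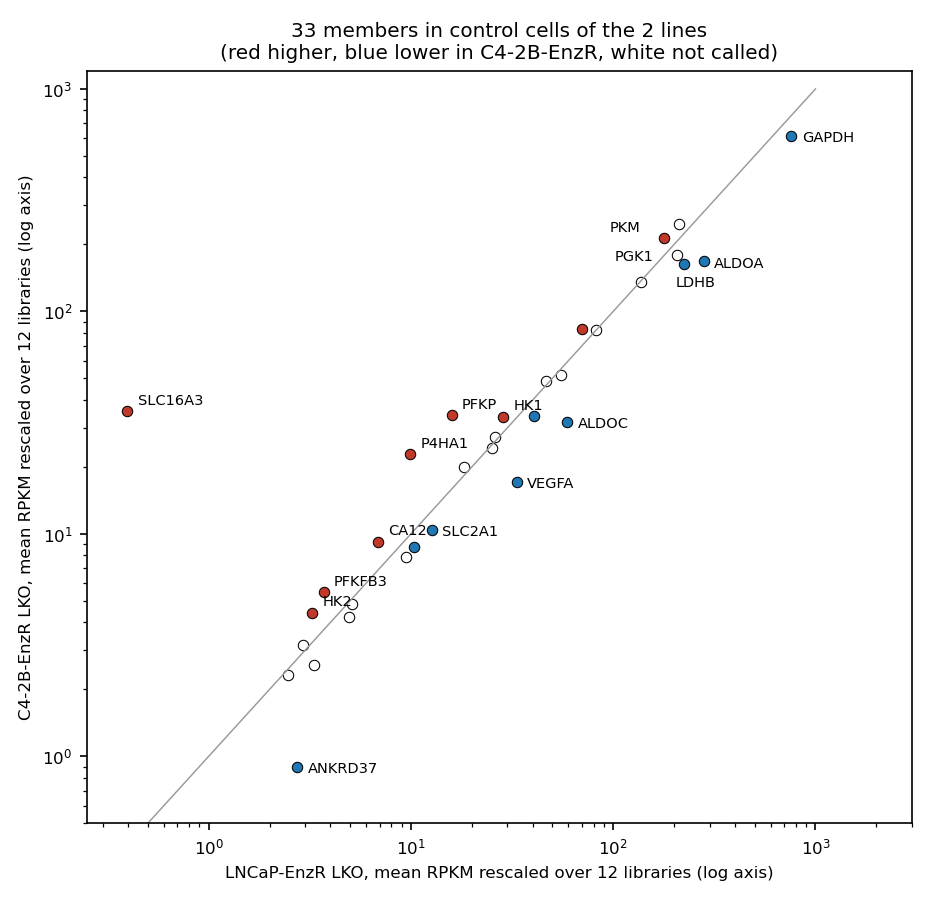
RPKM rescaled over 12 libraries of the tested members in LKO libraries of LNCaP-EnzR and C4-2B-EnzR cells, on log axes. SLC16A3, which would not have passed the filter on LNCaP-EnzR libraries alone, is at 0.397 against 35.6. The members next in size of difference are ANKRD37 and P4HA1, with log2 values of -1.39 and 1.19.

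Neighbouring pathways were read through lists of genes that are not members. Their counts below stand against 16.8% of all genes higher and 19.1% lower in LNCaP-EnzR cells, and 19.4% higher and 19.5% lower in C4-2B-EnzR cells. Of 10 tested isozymes and regulators of glycolysis, 2 were higher and 4 lower in each line (4 and 3 in LNCaP-EnzR cells without replicate 3). ENO2, the neuronal enolase that is also used as a neuroendocrine marker, fell from 11.61, 11.74 and 14.06 to 5.112, 6.024 and 5.996 in LNCaP-EnzR (-1.09, SE 0.1, adjusted p = 9.35e-05) and from 20.89, 19.17 and 20.77 to 12.06, 11.43 and 11.34 in C4-2B-EnzR cells (-0.79, SE 0.06, adjusted p = 0.000346). TIGAR, a fructose bisphosphatase that opposes glycolysis, fell by 0.99 and 0.33 on the log2 scale. MINPP1, an inositol polyphosphate phosphatase that also acts on bisphosphoglycerate, rose by 0.38 in LNCaP-EnzR cells and, more steeply, by 1.60 in C4-2B-EnzR cells, where it went from 11.85, 11.37 and 10.82 to 36.01, 30.77 and 38.45 (SE 0.09, adjusted p = 0.000152). Of 8 other glucose transporter genes none was higher, while 2 were lower in LNCaP-EnzR cells (3 without replicate 3) and 5 were lower in C4-2B-EnzR cells. SLC2A6 went from 11.16, 11 and 12.13 to 4.194, 4.203 and 5.596 in LNCaP-EnzR (-1.26, adjusted p = 8.75e-05) and from 28.96, 23.9 and 21.7 to 17.85, 15.8 and 18.43 in C4-2B-EnzR cells (-0.50, adjusted p = 0.0161), and SLC2A12 fell by 0.77 and 0.61. SLC2A8 (-0.44), the sodium-coupled glucose transporter SLC5A1 (-1.67, from 2.884 to 3.74 down to 0.8328 to 0.938) and SLC2A9 (-0.91, under 1 RPKM on average and named after its values were seen) were called lower in C4-2B-EnzR cells.

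The pentose phosphate pathway, which draws off glucose 6-phosphate to make NADPH and ribose, had 4 of its 8 genes higher and 1 lower in LNCaP-EnzR and 6 higher and none lower in C4-2B-EnzR cells, with medians of 0.25 and 0.46 against 0.03 and 0.00 for all genes. H6PD, its first enzyme in the endoplasmic reticulum, went from 7.691, 6.846 and 5.725 to 16.06, 21.27 and 18.08 in LNCaP-EnzR (1.42, SE 0.13, adjusted p = 8.5e-05) and from 16.96, 15.66 and 14.7 to 30.47, 30.68 and 27.13 in C4-2B-EnzR cells (0.89, adjusted p = 0.000546). RPIA, which makes ribose 5-phosphate, rose from 6.165, 5.317 and 4.811 to 12.96, 14.43 and 12.3 (1.25, adjusted p = 5.49e-05) and from 7.473, 7.616 and 8.788 to 16.37, 14.33 and 13.48 (0.87, adjusted p = 0.0013). PGLS, the lactonase, rose in C4-2B-EnzR cells (0.61). In the citric acid cycle 1 of 17 genes was higher and 6 lower in LNCaP-EnzR, and 5 were higher and 3 lower in C4-2B-EnzR cells. Citrate synthase, CS, fell from 44.6, 47.77 and 49.44 to 26.31, 26.25 and 22.19 (-0.92, adjusted p = 0.000101) and from 57.04, 60.6 and 68.22 to 31.19, 31.68 and 33.41 (-0.94, adjusted p = 0.000404). The mitochondrial isocitrate dehydrogenase IDH2 rose instead, from 39.8 ± 1.73 to 67.3 ± 5.7 (0.75) and from 78.1 ± 7.39 to 144 ± 1.96 (0.88, SD, n = 3). SDHD, a membrane subunit of succinate dehydrogenase, rose in C4-2B-EnzR cells (0.61). Without replicate 3 the LNCaP-EnzR counts were 5 higher and 1 lower for the pentose phosphate and 3 higher and 6 lower for the citric acid cycle genes.

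Of 13 further genes of pyruvate and lactate handling, 2 were higher and 3 lower in LNCaP-EnzR (4 and 3 without replicate 3), and 3 higher and 1 lower in C4-2B-EnzR cells. PDP1, the phosphatase that switches pyruvate dehydrogenase on, changed by -0.73 and -0.42 on the log2 scale, while MPC1, a subunit of the mitochondrial pyruvate carrier, and LDHD, the D-lactate dehydrogenase, rose in C4-2B-EnzR cells (0.64 and 0.60). Of 11 gluconeogenesis and glycogen genes, 1 was higher and 3 lower in LNCaP-EnzR (2 and 3 without replicate 3), and 3 higher and none lower in C4-2B-EnzR cells. The phosphoglucomutase PGM2 rose in both lines (0.60 and 0.68), while PGM1 (-0.84) and the glycogenin GYG1 (-0.51) fell in LNCaP-EnzR cells.

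The genes of oxygen sensing and the further HIF targets did not move one way. Of 11 HIF subunits and oxygen sensors, 1 was higher and 4 lower in LNCaP-EnzR (2 and 3 without replicate 3), and 2 higher and 1 lower in C4-2B-EnzR cells. VHL, the ubiquitin ligase subunit that recognizes hydroxylated HIF alpha, was lower in both lines, at 37.65, 36.26 and 37.25 against 20.08, 17.38 and 16.05 in LNCaP-EnzR (-1.05, SE 0.09, adjusted p = 5.57e-05) and at 21.26, 22.78 and 25.84 against 15.89, 16.66 and 13.78 in C4-2B-EnzR cells (-0.58, SE 0.1, adjusted p = 0.00563). ARNT2, a partner of HIF alpha subunits, rose in LNCaP-EnzR cells (1.07, from 0.8471 to 1.222 RPKM up to 1.986 to 2.968). EPAS1, which encodes HIF-2 alpha, rose in C4-2B-EnzR cells from 1.598, 1.542 and 2.075 to 3.094, 3.24 and 4.103 (0.91, adjusted p = 0.00531). Of 25 further HIF targets, 5 were higher and 9 lower in LNCaP-EnzR and 8 higher and 9 lower in C4-2B-EnzR cells.

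The further HIF targets with the largest changes went both ways. BNIP3L, the mitophagy receptor closest to BNIP3, fell from 60.75, 63.49 and 64.28 to 21.72, 18.84 and 16.72 in LNCaP-EnzR (-1.71, SE 0.1, adjusted p = 1.09e-05) and from 24.39, 30.24 and 30.56 to 12.77, 14.9 and 12.69 in C4-2B-EnzR cells (-1.06, adjusted p = 0.000922). DDIT4, an inhibitor of mTORC1 signalling also known as REDD1, fell by 1.35 and 0.82 on the log2 scale. HMOX1, heme oxygenase, which also answers to oxidative stress, rose from 2.45, 2.969 and 2.672 to 7.074, 7.119 and 6.809 (1.30) and from 7.373, 6.182 and 7.091 to 17.45, 15.21 and 18.6 (1.28). CITED2, an inhibitor of HIF coactivator binding that was named after its values were seen, went down from 113.6, 122.1 and 117.4 to 71.32, 72.57 and 59.83 in LNCaP-EnzR (-0.80) and up from 17.98, 18.62 and 19.58 to 29.44, 29.06 and 27.86 in C4-2B-EnzR cells (0.61). These lists were chosen with earlier results of these data known, so their counts are descriptions.

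**Figure D5:**
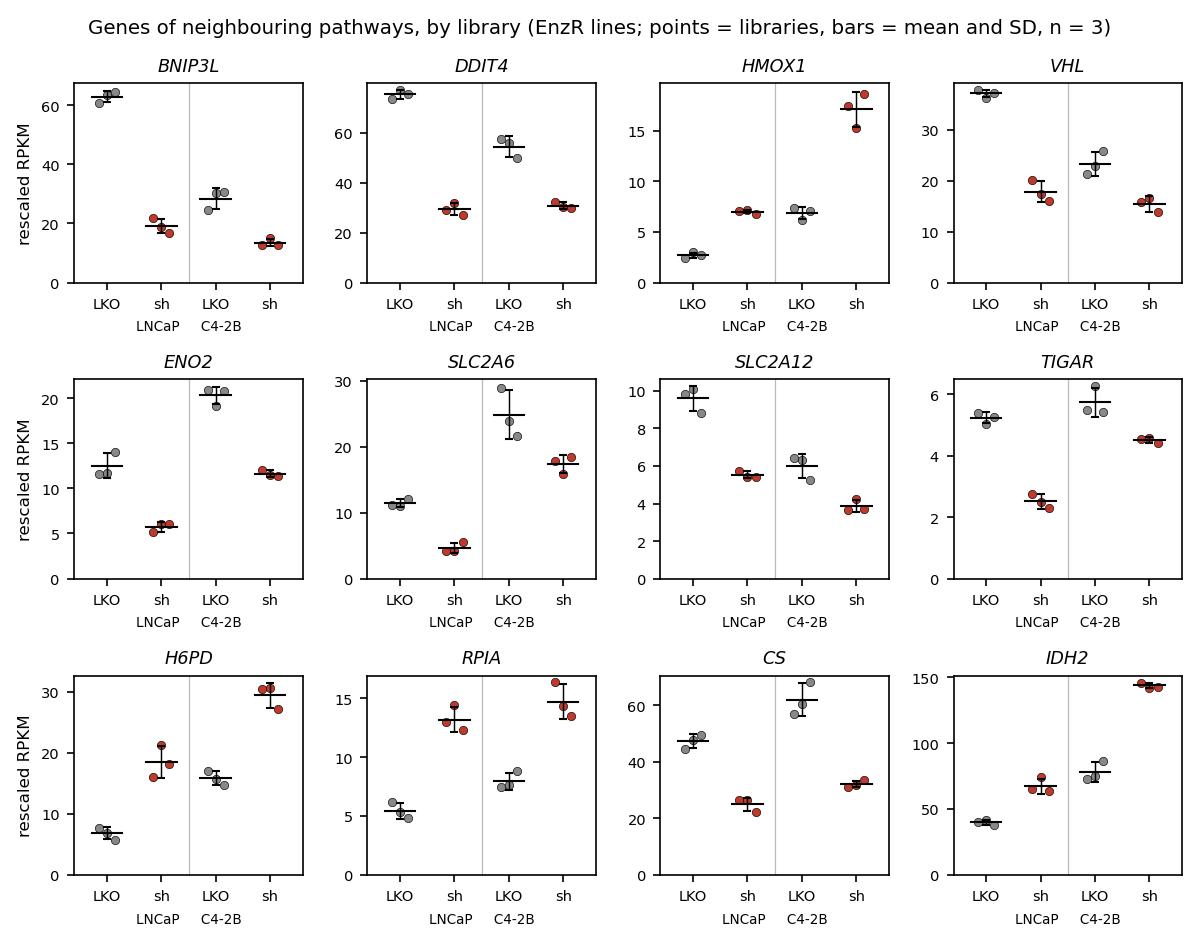
Rescaled RPKM in each library (points) with group mean and SD (n = 3) of 12 genes from neighbouring pathways, for LKO (grey) and shCXCR7 (red) in LNCaP-EnzR (left of each panel) and C4-2B-EnzR cells (right). BNIP3L falls from 62.8 to 19.1 and from 28.4 to 13.5 on average, while HMOX1 rises from 2.70 to 7 and from 6.88 to 17.1.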

How the data were processed

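RNA was sequenced from 12 libraries of 2 cell lines in 4 groups of 3. Per the labels and the study's methods, single-end reads from a NEBNext Ultra library were mapped to GRCh38 with STAR, and an in-house script turned gene counts into the RPKM values that the authors deposited. The annotation, the strand setting and the treatment of reads with several places are unknown, being not given in the sources used here. DESeq2 served the authors' own tests.

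The table had 26475 lines. After removal of 32 without a value and 4 repeated symbols, 26439 genes stayed. Values were divided by median-of-ratios factors within each line (13495 genes for LNCaP-EnzR, 13568 for C4-2B-EnzR) or, between control groups, over all libraries (13287 genes). Genes with at least 0.5 deposited RPKM in at least 3 libraries (14202) were fitted on log2(value + 0.25) with limma 3.58.1 (R 4.3.3, variance trend), with Benjamini-Hochberg adjustment over all of them and a threshold of 0.05. A fold change on this scale understates that of low genes. Isozyme shares were compared by 2-sided exact permutation tests (scipy 1.17.1). The steps of the RPKM values gave whole reads for 25028 of 25028 genes with a value (tolerance 0.02), and voom on these reads was an alternative. The fits were also run on reads simulated from control means with a fixed spread between libraries. That simulation did not include the pattern of LNCaP-EnzR shCXCR7 replicate 3, in which few genes were listed at 0.

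Named are all members, ACKR3, and from each other list up to 3 genes of at least 1 RPKM with the largest changes among those called in at least 1 line, or all that were called where 5 or fewer were. The members and lists were chosen with earlier results of these data known.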

Additional observations from a re-analysis of the deposited data

Results flagged for a closer look

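For 7 genes the knockdown effect differed between the lines by the interaction test, given as the log2 effect in C4-2B-EnzR minus that in LNCaP-EnzR cells. ALDOC (0.90), PFKFB2 (0.69) and NDRG1 (0.62) had the more positive effect in C4-2B-EnzR cells. SLC2A1 (-0.69), PFKP (-0.56), PGK1 (-0.70) and the knocked-down ACKR3 (-0.72) had the more negative one. SLC2A1 and NDRG1 were called in opposite directions in the 2 lines, PFKP was called in C4-2B-EnzR and ALDOC in LNCaP-EnzR cells only, and the other genes were called in 1 direction in both. None of the 6 member differences was called on deposited values, where LNCaP-EnzR shCXCR7 replicate 3 is not rescaled. The ACKR3 difference was not called there either, nor was the fall of ACKR3 in LNCaP-EnzR cells.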

How the results depend on the processing

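Of 2346 single-gene values under the alternatives, 2090 kept their direction and side of the threshold, 121 fell below it, 44 passed it, 87 without a call under either setting turned sign, and 4 called under at least 1 of them did. On deposited RPKM, LNCaP-EnzR had 0 members higher and 1 lower, C4-2B-EnzR 5 lower, the difference between lines 0 in each direction and the control comparison 5 lower. The sign turned on deposited RPKM for SLC2A1 (-0.091) and P4HA1 (-0.037) in LNCaP-EnzR cells, and under quantile normalization for TPI1 (0.216) and GAPDH (0.043) between controls. Leaving out 1 library at a time gave 3 to 6 members higher in LNCaP-EnzR, 4 to 11 lower in C4-2B-EnzR, 3 to 5 upward in the difference and 5 to 9 lower between controls. Deviations of libraries from their group means, over tested genes, correlated at -0.096 to 0.08 for same-numbered and -0.109 to 0.088 for differently numbered libraries. Whether the numbers pair libraries is not settled by this, since deviations of 3 libraries from their own mean constrain each other. With a replicate block 3 members were lower in C4-2B-EnzR cells, 4 were higher and 1 (HK2) lower in both lines, and none was called oppositely. Over all genes the counts differed by more than 1.5 times on deposited values, with 275 higher and 364 lower in LNCaP-EnzR (2381 and 2711 after rescaling) and 20 and 33 for the difference (818 and 847), and without a filter the difference had 532 upward. With the block it had 478 and 544, and without single libraries as few as 442 upward (LNCaP-EnzR LKO replicate 3) and 526 downward (C4-2B-EnzR shCXCR7 replicate 1). C4-2B-EnzR had 1786 higher without shCXCR7 replicate 1 and 1807 without shCXCR7 replicate 2, against 2761. The smallest p of 0.1 for the isozyme shares leaves no call to lose. SLC16A3 in LNCaP-EnzR cells and SLC2A3, CA9 and ADM rest on few reads outside LNCaP-EnzR shCXCR7 replicate 3. That library had 9.82 M reads in genes, no more than LNCaP-EnzR LKO replicate 2 at 9.83 M. Why it held more reads of these genes was not tested.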
